A study of Mus musculus with 6 samples.

Results

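The 10 genes described here encode the receptor complex that senses lipopolysaccharide (LPS), a component of bacterial membranes, and the adaptors, kinases and ligase bound closest to it. They are Tlr4, Cd14, Ly96, Myd88, Tirap, Ticam1, Ticam2, Irak1, Irak4 and Traf6. They were measured in BV2 cells, an immortalized mouse microglial line, as 16 probes on Agilent mouse gene expression arrays, of the 23462 genes and 56605 probes that the arrays held. A probe was assigned to one of these genes when the RefSeq accession in the array file belonged to it, every such probe was kept, and no measured value entered that rule. The set was nevertheless proposed with the results of these arrays known, so the values of these 10 genes are a description and no p-value is given for them.

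All 6 samples had received LPS. The 3 samples titled as cells without PGC-1α are here the control group, and the 3 titled as cells with PGC-1α the overexpression group. Each array held 1 RNA sample. The comparison asks how PGC-1α, a transcriptional coactivator, alters gene expression in stimulated microglial cells. In the study's cell culture methods the line was transduced with a lentivirus carrying either PGC-1α or a negative control, in a vector that also encodes EGFP, was selected with puromycin, and was given 500 ng/ml LPS during 6 h. Whether the arrayed samples had that dose and time is not stated, and the labels give neither. The sample titles also do not say whether the cells without PGC-1α carried the negative control. No array of cells without LPS was analysed here, so none of the values is a response to LPS. Nothing states that the 3 samples of a group came from separate cultures, and the spread between them may be technical.

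In background terms, CD14 takes up LPS and passes it to MD-2, the product of Ly96, which sits on the outer part of TLR4 and binds the lipid. Ligand-bound TLR4 recruits adaptors through a shared TIR domain, either TIRAP and MyD88 at the plasma membrane or TRAM (Ticam2) and TRIF (Ticam1) on endosomes. MyD88 assembles IRAK4 and IRAK1 and thereby activates the ubiquitin ligase TRAF6, which leads to NF-κB and MAP kinases, while TRIF leads to IRF3 and interferon-β. In microglia this pathway is the main route by which LPS induces inflammatory genes.

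The intensity of each spot was taken as log2 after division by the 75th percentile of the same array. A scaled value of 0 is therefore a spot as bright as that percentile, and values of different probes cannot be ranked as transcript levels. Probes that were clearly detected on every array of either group were tested with limma, and a gene with several tested probes was represented by its brightest one. Differences are always overexpression minus control and are given with their standard error (SE) from limma, and the threshold was an adjusted p of 0.05 over all genes or probes tested. The scanner software called between 41122 and 45165 of 59305 spots well above background on the 6 arrays and none saturated, and the overexpression arrays were the dimmer ones (75th percentile of the intensity 856 to 1268 against 1617 to 1893). Under this scaling the median change over all 17062 genes tested was 0.23 on the log2 scale, and 0.03 after quantile normalization, so positive changes in particular depend on the scaling. The arrays lay on 2 slides, replicates 1 and 2 of both groups on slide 1 and replicate 3 of both on slide 2. Ppargc1a, which encodes PGC-1α, lay close to background on both of its probes and was not tested. Its scaled log2 values were -6.76 ± 0.82 (SD, n = 3) and -5.62 ± 0.32 on the first probe, and the groups overlapped on the second, so it gives no firm check of the labels.

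Of the 10 genes, 9 were tested, and Tlr4, Tirap and Irak4 were lower on the overexpression arrays while Ly96 and Irak1 were higher. Cd14, Myd88, Ticam1 and Traf6 did not pass the threshold, and Ticam2 was too dim to test. Over the whole table, 56.5% of genes passed, 36.9% as higher and 19.6% as lower ones. With quantile normalization these shares were 42.5%, 21.7% and 20.9%, and of the 9 genes the same 3 were lower and none was higher. The scaled values of the groups did not overlap for 5 of the 9 genes, beside 65.5% of all genes with a value on every array, and for 3 of the 9 after quantile normalization, beside 55.2%. The median log2 fold change of the 9 genes was -0.19, and -0.32 after quantile normalization. At the level of probes, 15 of the 16 were tested, 4 were higher and 5 lower (4 without the second Tlr4 probe, which was not well above background in the overexpression samples), where 52.7% of all 24558 probes tested passed, 31.4% as higher and 21.3% as lower. After quantile normalization 1 was higher and 5 were lower, where the shares over all probes were 40.9%, 18.3% and 22.6%. The groups did not overlap for 10 of the 15 probes before and 8 after quantile normalization, beside 63.0% and 54.1% of all probes. The second Tlr4 probe is counted among the 5 lower ones and among those without overlap under both scalings. It entered the test only through the control group, in which it was high.

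**Figure D1:**
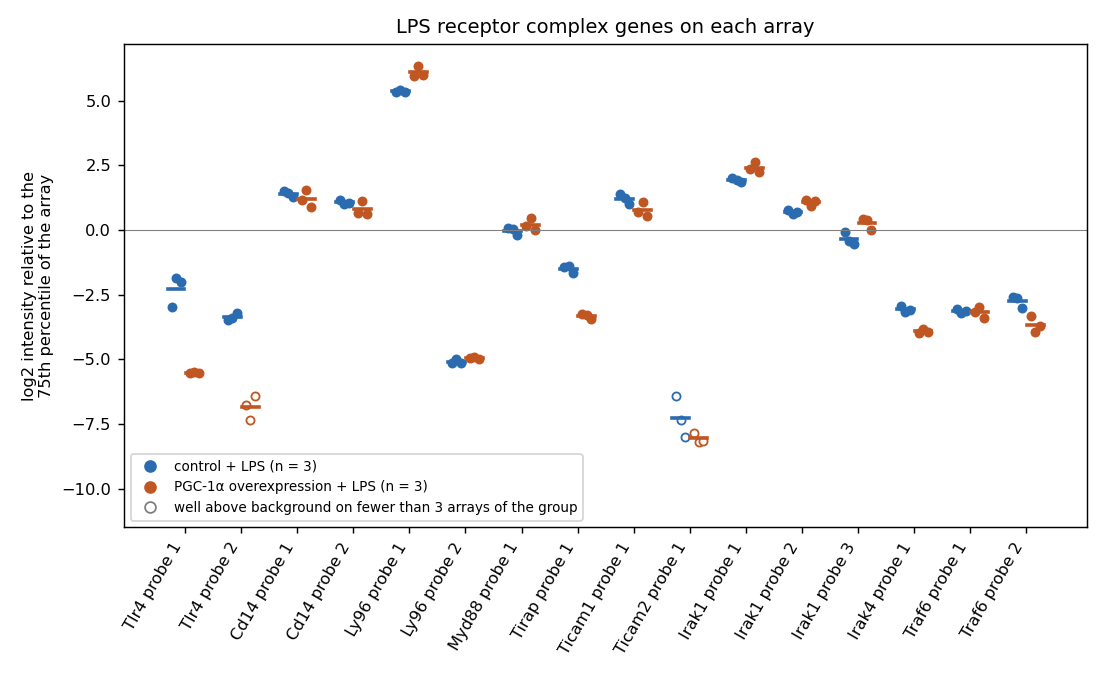
Scaled log2 intensity of the 16 probes on each of the 6 arrays, relative to the 75th percentile of the array. Points are arrays, bars are group means, and open points mark a group in which the probe was well above background on fewer than 3 arrays. The overexpression points of both Tlr4 probes, Tirap and Irak4 lie below all control points, and those of Ly96 probe 1 lie above them.

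Tlr4, the signalling receptor itself, had the difference farthest from 0 among the 10 genes. The first Tlr4 probe (NM_021297) read -2.98, -1.85 and -2.01 in the control samples and -5.52, -5.50 and -5.54 in the overexpression samples. The groups did not overlap, the 3 overexpression values were nearly equal, and control replicate 1 was the lowest of the control arrays. The group means of -2.28 ± 0.61 (SD, n = 3) and -5.52 ± 0.02 (SD, n = 3) gave a log2 fold change of -3.24 with an SE of 0.27, or 9.45-fold lower. Only 23 of the 17062 genes had a more negative change, Tlr4 being number 24 in that order. Without control replicate 1 the log2 fold change was -3.59, and it was -3.39 after quantile normalization. Within slide 1 the difference was -3.09 and within slide 2 it was -3.54.

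The second Tlr4 probe carries the same accession and gave the same direction. Its control values were -3.48, -3.39 and -3.23, all well above background. On the overexpression arrays it read -6.76, -7.33 and -6.44 and was well above background on 0 of 3 arrays, so only a bound can be stated. Taking for each overexpression array the higher of the probe's own value and the dimmest spot well above background (mean -6.30), Tlr4 was at least 7.65-fold lower by this probe. The size of the difference depended on the background correction. With normexp correction, which adds an offset and compresses dim values, the log2 fold change of the first probe was -1.56, which passed. The second probe was then at -0.90, so the 7.65-fold bound holds only without that correction. Tlr4 lies on chromosome 4 (positions 66827551 to 66846581, assembly GRCm38.p6), but where either probe lies in its transcript is not known here. In these bulk samples, fewer cells with the transcript and less of it per cell cannot be told apart, for Tlr4 as for the other genes.

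The coreceptors of Tlr4 did not follow it. Cd14, the membrane-anchored carrier that hands LPS to the complex, read 1.50, 1.43 and 1.27 in the control samples and 1.15, 1.57 and 0.91 in the overexpression samples with its first probe (NM_009841). Overexpression replicate 2 was above all 3 control arrays and the other 2 were below them, so the groups overlapped. The log2 fold change was -0.19 (SE 0.18, 95% interval -0.60 to 0.23). The second Cd14 probe had a log2 fold change of -0.28 (SE 0.17) and overlapped likewise. Neither Cd14 probe passed the threshold, before or after quantile normalization.

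Ly96, on chromosome 1 (positions 16688456 to 16709605), encodes the LPS-binding partner MD-2. Its first probe (NM_016923) read 5.36, 5.42 and 5.35 in the control samples and 5.97, 6.34 and 5.98 in the overexpression samples. These scaled values did not overlap, and the log2 fold change was 0.72 (SE 0.14), or 1.65-fold higher. Before scaling, however, the log2 intensities were 16.02, 16.08 and 16.24 against 16.15, 16.08 and 16.29, which overlap with a mean difference of 0.06. The rise of Ly96 was thus a rise relative to the other spots of dimmer arrays, and after quantile normalization it was 0.12 (SE 0.12), which did not pass. The second Ly96 probe, which carries the accession of another transcript (NM_001159711), was well above background on all 6 arrays, and its log2 fold change was 0.14 (SE 0.12), and -0.07 after quantile normalization, neither of which passed.

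The difference between 2 probes on the same array is free of any scaling by 1 factor per array, although quantile normalization can alter it. Here and below, each pair sets a probe with a negative change against a probe whose change was smaller or positive. Their separation is therefore a description and no test. The log2 difference Tlr4 minus Ly96, centred on its control mean, was -0.68, 0.39 and 0.30 in the control samples and -3.84, -4.18 and -3.87 in the overexpression samples. Tlr4 minus Cd14 shifted by -3.05 between the group means and Tlr4 minus Ly96 by -3.96, and neither pair of groups overlapped. After quantile normalization the shifts were -3.06 and -3.51, again without overlap, so under either procedure the Tlr4 signal stood lower relative to both coreceptors on each overexpression array than on any control array.

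**Figure D2:**
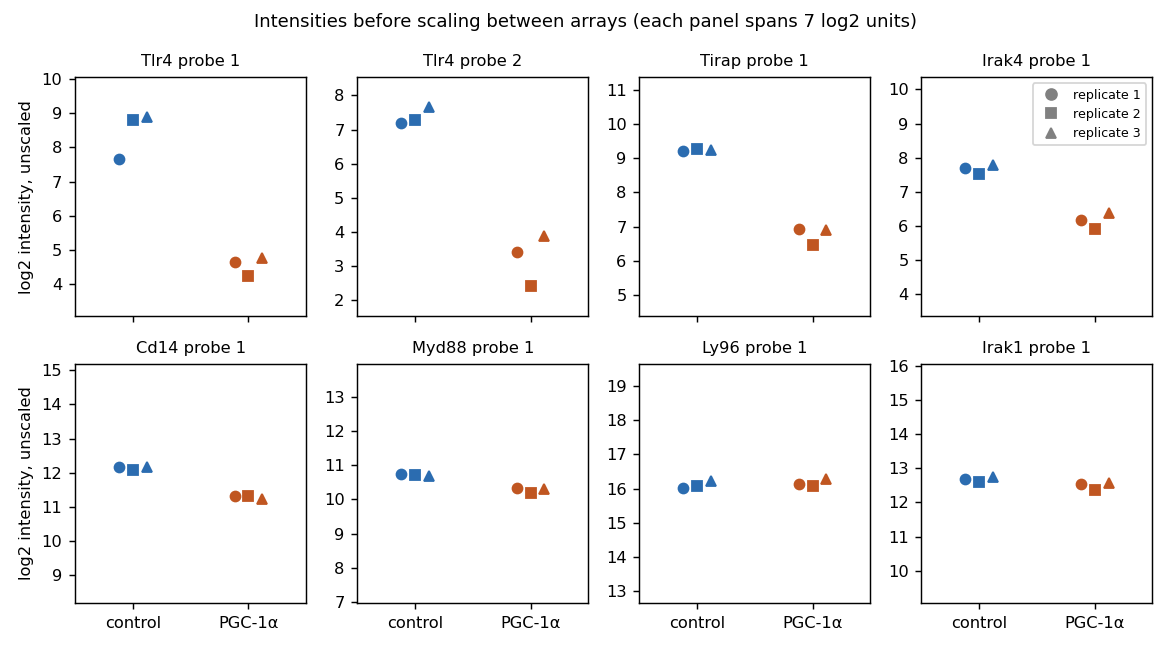
Log2 intensity before any scaling between arrays for 8 probes, control arrays at the left of each panel and overexpression arrays at the right, with 1 marker shape per replicate number. Every panel spans the same number of log2 units. Both Tlr4 probes, Tirap and Irak4 are separated by more than 1 log2 unit, Cd14 and Myd88 by less, and Ly96 overlaps.

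Among the adaptors, Tirap and Myd88, which act together at the plasma membrane, differed from each other. Tirap, the bridging adaptor that brings MyD88 to TLR4, read -1.44, -1.38 and -1.64 in the control samples and -3.25, -3.28 and -3.42 in the overexpression samples (NM_054096). The groups lay far apart with little spread inside either, and the log2 fold change was -1.83 (SE 0.13), or 3.55-fold lower. It was -1.88 after quantile normalization, -1.85 within slide 1 and -1.78 within slide 2. In the order of all 17062 genes, Tirap was number 310 from the most negative change.

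Myd88, the adaptor on which all IRAK signalling from this receptor rests, read 0.09, 0.04 and -0.20 in the control samples and 0.17, 0.45 and 0.00 in the overexpression samples (NM_010851). The groups overlapped and the log2 fold change of 0.23 (SE 0.16, 95% interval -0.13 to 0.59) did not pass the threshold and lay at the median of all genes, 0.23. The log2 difference Tirap minus Myd88 on the same array shifted by -2.06 between the group means, and its groups did not overlap.

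Ticam1 encodes TRIF, the adaptor of the endosomal branch. It read 1.38, 1.23 and 0.99 in the control samples and 0.68, 1.10 and 0.55 in the overexpression samples (NM_174989). Overexpression replicate 2 lay above control replicate 3, and the log2 fold change of -0.42 (SE 0.18) did not pass the threshold. It passed under 6 of the 18 alternatives, among them scaling by the median (-0.53) and the slide as a block, and also without overexpression replicate 2 (-0.59). On the same array, Ticam1 minus Myd88 was -0.71, -0.58 and -0.68 on the overexpression arrays relative to the control mean, below the lowest control value of -0.03. This separation rests on both genes, since Ticam1 alone overlapped and Myd88 changed by 0.23.

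Ticam2, which encodes TRAM, the bridging adaptor of TRIF, was close to background. Its single probe (NM_173394) was well above background on 1 of 3 control arrays and 0 of 3 overexpression arrays, so no fold change is given. The scaled values were -6.43, -7.34 and -8.00 in the control samples and -7.84, -8.18 and -8.14 in the overexpression samples, and they overlapped.

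Directly below MyD88, the kinases differed in direction. Irak4, the kinase that MyD88 recruits first, read -2.96, -3.15 and -3.09 in the control samples and -4.00, -3.82 and -3.93 in the overexpression samples (NM_029926). Its groups did not overlap and the log2 fold change was -0.85 (SE 0.12), or 1.80-fold lower. It was -0.97 after quantile normalization, -0.85 within slide 1, -0.84 within slide 2 and -0.40 with normexp correction.

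Irak1, the kinase that IRAK4 phosphorylates and that carries the signal on to TRAF6, was higher on all 3 of its probes under the 75th percentile scaling. The first Irak1 probe (NM_008363) read 2.02, 1.92 and 1.86 in the control samples and 2.36, 2.63 and 2.26 in the overexpression samples, which gave a log2 fold change of 0.48 (SE 0.14). The second (NM_001177974) changed by 0.37 and the third (NM_008363) by 0.62, and on each probe every overexpression value exceeded every control value. After quantile normalization the changes were 0.23, 0.31 and 0.62, and only the third probe passed. Without control replicate 2 or 3 the gene did not pass under either omission (0.47 and 0.45). Before scaling, the first probe was 0.18 log2 units dimmer on the overexpression arrays, so that, as with Ly96, the rise was relative to the rest of the array. Irak4 minus Irak1 on the same array shifted by -1.33, without overlap.

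Traf6, the ubiquitin ligase at the end of this chain, gave different answers by probe, although both probes carry the accession NM_009424. The first Traf6 probe read -3.07, -3.20 and -3.15 in the control samples and -3.17, -2.97 and -3.38 in the overexpression samples, an overlap with a log2 fold change of -0.03 (SE 0.14). The second read -2.59, -2.64 and -3.02 against -3.31, -3.94 and -3.72, with no overlap and a log2 fold change of -0.90 (SE 0.20) that passed. The log2 difference between the probes on the same array shifted by -0.87, and which of them follows the whole transcript was not tested. The gene-level call rests on the probe chosen, since the mean of both probes was -0.47 and passed, and without overexpression replicate 2 or 3 the second probe became the brighter one and the gene passed at -0.76 or -0.87.

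**Figure D3:**
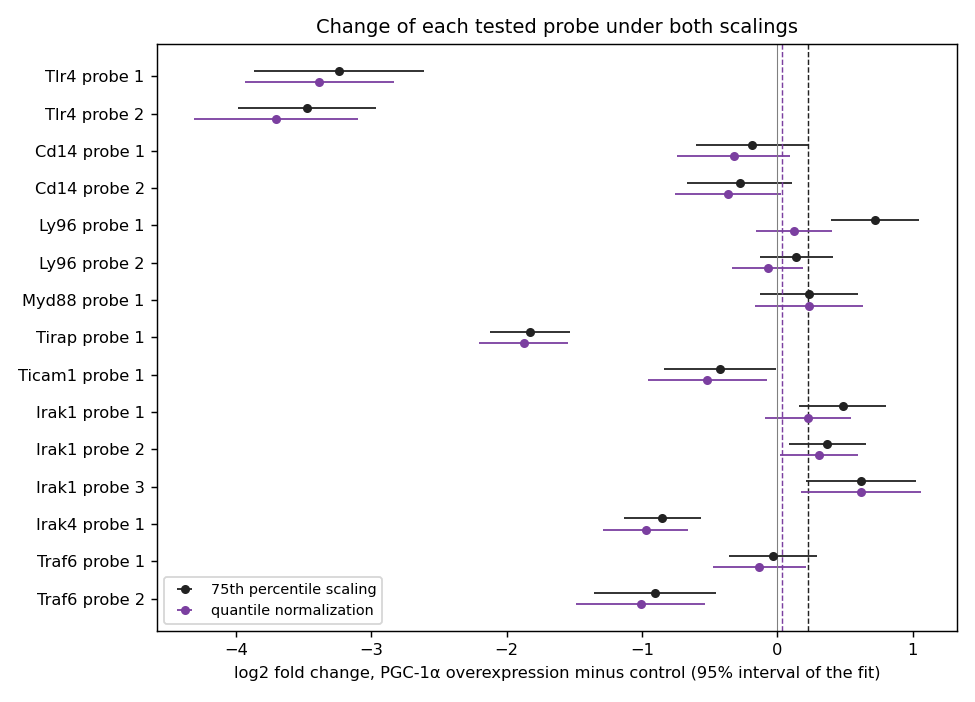
Log2 fold change of each of the 15 tested probes with the 95% interval of the fit, under the 75th percentile scaling (black) and quantile normalization (purple). Dashed lines mark the median of all genes under each scaling, and not that of all probes, which was 0.15 under the 75th percentile scaling. Both Tlr4 probes, Tirap, Irak4 and Traf6 probe 2 lie below 0 under both, the point of Tlr4 probe 2 being no measured size because its overexpression values were not well above background, while Ly96 probe 1 is at 0.72 under the first and 0.12 under the second.

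Promoter sequence was examined because Tirap and Irak4 were lower while Irak1 and Myd88 were not. In the RefSeq promoter table (GRCm38.p6, 250 bases before to 50 after each start), 6 of the 10 genes were searched, 8 windows in all. No window was given for Tlr4 or Ly96. Cd14 and Ticam2 were left out of the search, so the counts below say nothing about them. The motifs were chosen after the values were seen, were searched on both strands, and a match is a description and not a binding site. The ETS letters CCGGAAG were in the windows of 3 of the 6 genes, Tirap, Irak4 and Ticam1, and in 8.86% of all 32851 windows. The GC box GGGCGG was in the windows of all 6 genes (35.7% of all windows) and the PU.1 core GAGGAA in those of Traf6 and Ticam1 (28.3%). The letters AAGGTCA (ERR half-site, 4.72% of all windows) were in none of the 6 and the NRF1 core GCGCATG (3.91% of all windows) in 1, Irak4. The ETS and PU.1 letters share the run GGAA but did not overlap in these windows. The 250 bases before the start are printed for the 3 genes with ETS letters, of the Tirap windows the one with the more downstream start, and for Irak1, the higher gene without them, with the ETS letters or their reverse complement in capitals.
Tirap promoter, chr9:35199906-35200155, minus strand: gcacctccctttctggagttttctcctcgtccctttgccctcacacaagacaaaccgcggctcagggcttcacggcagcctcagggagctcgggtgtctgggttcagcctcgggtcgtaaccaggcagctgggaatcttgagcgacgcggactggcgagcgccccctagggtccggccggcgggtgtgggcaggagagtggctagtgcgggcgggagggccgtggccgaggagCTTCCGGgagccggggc
Irak4 promoter, chr15:94543410-94543659, plus strand: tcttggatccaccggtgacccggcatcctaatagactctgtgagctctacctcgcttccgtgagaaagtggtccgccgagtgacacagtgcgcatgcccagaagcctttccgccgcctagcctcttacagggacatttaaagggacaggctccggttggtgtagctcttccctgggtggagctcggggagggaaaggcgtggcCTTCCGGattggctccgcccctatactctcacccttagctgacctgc
Ticam1 promoter, chr17:56276768-56277017, minus strand: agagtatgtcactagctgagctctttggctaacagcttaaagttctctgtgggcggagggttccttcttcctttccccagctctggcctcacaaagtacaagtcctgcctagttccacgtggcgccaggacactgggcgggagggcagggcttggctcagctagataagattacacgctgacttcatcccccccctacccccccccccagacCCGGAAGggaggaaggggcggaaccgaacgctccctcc
Irak1 promoter, chrX:74023922-74024171, minus strand: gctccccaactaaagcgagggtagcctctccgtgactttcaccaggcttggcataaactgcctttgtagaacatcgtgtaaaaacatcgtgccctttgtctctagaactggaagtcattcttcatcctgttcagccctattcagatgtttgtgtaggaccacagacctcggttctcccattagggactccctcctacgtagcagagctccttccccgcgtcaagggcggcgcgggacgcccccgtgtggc
In the Tirap, Irak4 and Ticam1 lines the capitals stand within the last 50 bases before the start, at positions 234 to 240, 204 to 210 and 213 to 219 of the window. The Irak1 line holds none. Nothing about any factor follows from these letters, and Ticam1 did not pass the threshold.

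The other genes of the pathway were grouped in 5 lists by their role, 81 genes of which 75 were tested. Over these lists 8 genes were higher, 23 were lower and 44 did not pass, beside 36.9% of all genes higher and 19.6% lower. After quantile normalization 4 were higher and 26 lower, beside 21.7% and 20.9% of all genes. The shares under each scaling are the background for the counts of every list below. The medians are read beside 0.23 for all genes. The lists were drawn up with earlier results of these data known, and the genes named have the largest changes past the threshold. Their adjusted p-values are therefore a description and not a test of these lists.

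Most genes that deliver LPS or fold and traffic the receptor did not pass. Of 12, 11 were tested, with 2 higher, 2 lower and a median log2 fold change of 0.01. After quantile normalization 0 were higher and 1 was lower, and with 1 array left out at a time 1 to 2 were higher and 1 to 2 lower. Rab7b, a small GTPase that sends TLR4 to lysosomes, fell by 1.18 (SE 0.13, adjusted p = 0.00047 in limma), but its other probe was at 0.03. Cnpy4, linked to the surface display of TLR4, was lower by a small margin (-0.31, adjusted p = 0.0499). Cd180, a TLR4-like receptor, was higher by 0.68 (adjusted p = 0.018), a fit that lacks overexpression replicate 1, and its other probe was at -2.61. Cd36, a scavenger receptor, was higher by 0.50 (adjusted p = 0.037), and none of Cnpy4, Cd180 and Cd36 passed after quantile normalization.

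Of the 23 genes of the MyD88 and TRAF6 branch, all were tested and 20 did not pass, with 2 higher, 1 lower and a median of 0.05. Map3k8, the MAP3 kinase TPL2 that drives ERK activation after LPS, fell by 1.33 (SE 0.16, adjusted p = 0.00058 in limma) and by 1.47 after quantile normalization. Peli2, a ubiquitin ligase acting with the IRAKs, rose by 0.66 (adjusted p = 0.022), and Ube2v1, a cofactor of the enzyme that builds the ubiquitin chains of TRAF6, rose by 0.57 (adjusted p = 0.0097), but neither passed after quantile normalization. The other Peli2 probe was at -0.28.

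The TRIF branch lay lower as a list. Of its 12 genes, 8 were lower, 1 was higher and 3 did not pass, with a median of -0.58, and the counts were the same after quantile normalization. Fadd, the death-domain adaptor, fell by 2.27 (SE 0.21, adjusted p = 0.00018 in limma). Irf3, the transcription factor that TRIF activates, fell by 1.64 (SE 0.14, adjusted p = 0.00013), with its other probe at -1.70. Tradd, an adaptor shared with the TNF receptor, fell by 1.07 (adjusted p = 0.0007). Ifnb1, the interferon gene at the end of this branch, was the only gene of the list that rose, by 0.89 (SE 0.18, adjusted p = 0.0049), and by 0.66 after quantile normalization, but no gene of the list was higher with normexp and quantile normalization. Its probe was dim, at -5.66 ± 0.23 (SD, n = 3) and -4.78 ± 0.28 (SD, n = 3).

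Inhibitors of the receptor complex went both ways. Of 18, 16 were tested, with 2 higher, 5 lower, 9 that did not pass and a median of -0.09. These counts were not stable, since leaving out any 1 array gave 1 higher and 2 to 3 lower, and quantile normalization gave 7 lower. Tollip, which holds the IRAKs inactive, rose by 0.77 (adjusted p = 0.0057 in limma), and Cyld, a deubiquitinase, was higher by 0.37 (adjusted p = 0.045) although its 3 tested probes ranged from -0.70 to 0.37. Tnfaip3, which encodes the ubiquitin-editing enzyme A20, fell by 1.07 (adjusted p = 0.003), Sigirr, a decoy-like TIR receptor, by 0.91 (adjusted p = 0.00078) and Rnf216, a ligase that marks Toll-like receptors for degradation, by 0.49 (adjusted p = 0.026).

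Tlr4 was not the only receptor with a TIR domain that was lower. Of 16 other such receptors and partners, 13 were tested, with 7 lower, 1 higher and a median of -0.79. Tlr12, a mouse receptor for a protozoan protein, fell by 3.53 (SE 0.13, adjusted p = 1.1e-05 in limma) and was well above background on 2 of 3 overexpression arrays. Tlr2, the receptor for bacterial lipopeptides, fell by 1.74 (SE 0.13, adjusted p = 7.1e-05). Tlr7, a receptor for single-stranded RNA, fell by 1.96 (SE 0.19, adjusted p = 0.00025) on its brightest probe, while its 3 tested probes ranged from -1.97 to 1.15. Tlr8, another endosomal receptor, was the 1 higher gene of this list, at -6.86 ± 0.47 (SD, n = 3) in the control samples and -5.81 ± 0.08 (SD, n = 3) in the overexpression samples. It was well above background on 1 of 3 control arrays and 3 of 3 overexpression arrays, so it entered the test only through the group in which it was high. No gene of the list was higher when detection on all 6 arrays was required or with normexp and quantile normalization. With detection on all 6 arrays required, 5 were lower. Tlr1, another of the 7 lower genes, was well above background on 3 of 3 control arrays and 1 of 3 overexpression arrays. Tlr1 and Tlr12 thus entered the test only through the control group, in which they were high.

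**Figure D4:**
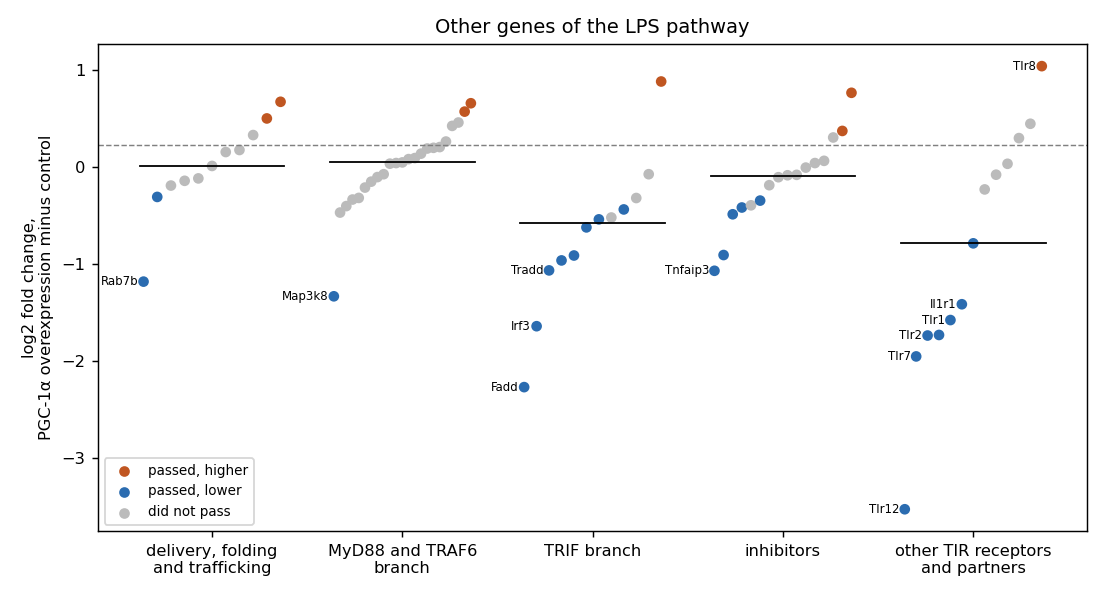
Log2 fold change of every tested gene in the 5 pathway lists, sorted within each list. Orange and blue points passed the threshold as higher and lower and grey points did not, black bars are list medians, and the dashed line is the median of all genes, 0.23. The medians of the TRIF branch (-0.58) and of the other receptors with a TIR domain (-0.79) are the lowest.

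Some markers of cell type also passed the threshold on the same arrays. Of 12 microglial markers, 10 were tested, 4 were higher (Itgam, Csf1r, Trem2 and Tyrobp) and 1 was lower (Tmem119, at -2.68), all 5 named after their values were seen. Of all genes, 36.9% were higher and 19.6% lower, and the median of the 10 was 0.24, near the 0.23 of all genes. None of the 4 passed after quantile normalization, and the summed scaled intensity of the tested markers, on the linear scale, was 72.7 to 74.4 in the control samples and 102 to 122 in the overexpression samples. Cx3cr1 and P2ry12, which define resting microglia, were not well above background on any array. All 4 fibroblast markers were higher (3 after quantile normalization), with a summed intensity of 15.2 to 16.5 against 26.5 to 32.0. Col1a1, the brightest of them, rose by 0.77 but by 0.25 after quantile normalization, which did not pass. Col3a1 was well above background on 2 of 3 control and 3 of 3 overexpression arrays. It entered the test only through the group in which it was high. Of the astrocyte, neuronal and oligodendrocyte markers, 2 of 3, 2 of 3 and 1 of 4 tested were higher (2, 1 and 1 after quantile normalization). Their sums were 0.241 to 0.278 against 0.408 to 0.520, 22.0 to 27.9 against 35.2 to 48.4, and 1.02 to 1.14 against 1.16 to 1.30. Snap25, the brightest neuronal marker, rose by 0.71 but by 0.11 after quantile normalization, which did not pass. Rbfox3, the other higher neuronal marker, was well above background on 2 of 3 control and 3 of 3 overexpression arrays, as Col3a1 was. Syt1 was not well above background on any array. The part of the cell type markers in the values of the receptor genes was not tested.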

How the data were processed

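RNA of 6 samples was measured on 1-colour Agilent arrays. The intensity values, as the authors deposited them, had been background-subtracted within each array by Agilent Feature Extraction 11.5.1.1 and not normalized between arrays. A second table that the authors deposited holds log2 values of some probes, normalized in GeneSpring 13 by a procedure not given in the sources used here, and these served as an alternative. The dye is Cy3 in the labels and Cy5 in the methods, and the files hold a green channel alone. Outlier spots were left out, repeated spots of a probe were averaged, and accessions were matched to a RefSeq table of GRCm38.p6 (33767 of 56605 probes), whereas the array design names an older assembly. A probe needed values on 2 arrays of each group. Groups came from the sample labels and were compared two-sided in R 4.3.3 with limma 3.58.1 (lmFit, then eBayes), adjusting p-values by the Benjamini-Hochberg method, and tables were made with Python 3.11.15. With 3 arrays against 3, the smallest exact permutation p is 0.1. In simulated arrays of the 17062 genes with 200 changed, 86% were recovered at a log2 fold change of 1 and 100% at 2. Changes of both sizes were simulated together, and there were 14 false calls in all. Far more genes passed in the data (9633), so these rates need not hold for the measured arrays. Precision is limited by the number of arrays.

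The genes, lists, probe pairs and motifs were chosen with earlier results of these data known. Named were all 10 genes with every probe and, of each pathway list, up to 3 genes with the largest changes in each direction among those past the threshold, besides Ppargc1a. Alternatives were quantile normalization, the median as scale, normexp with an offset of 50 on the spot and background signals under either scaling, no filter or a stricter filter on dim spots, the mean of a gene's probes, slide or replicate number as a block, slide 1 alone, a variance trend with robust estimation, the authors' log2 values, and each array left out in turn.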

Additional observations from a re-analysis of the deposited data

How the results depend on the processing

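Tlr4, Tirap and Irak4 were lower and passed the threshold under all 18 alternatives, with log2 fold changes of -3.59 to -1.56, -1.94 to -1.37 and -0.97 to -0.40, the smallest of each with normexp correction. The rise of Ly96 passed under 15 alternatives and that of Irak1 under 12, and Myd88 and Cd14 (first probe) passed under none. Of the 9 genes tested, 2 were higher in the reported analysis, against 0 after quantile normalization, 0 with normexp and quantile normalization, 0 in the authors' log2 values and 1 with the median as scale. Of the member probes, 4 were higher, against 1, 1, 1 and 2 under the same settings. Over the 5 pathway lists 8 genes were higher, against 4 after quantile normalization with or without normexp and 5 each with no filter on dim probes, with the mean of the probes and in the authors' log2 values. The share of higher genes among those that passed was 65.3% as reported, 51.0% after quantile normalization, 45.7% with normexp and quantile normalization and 50.9% in the authors' log2 values. The number of genes past the threshold was 9633, and 6387 with normexp and quantile normalization. The cause of these shifts was not tested.

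The second Ly96 probe, which did not pass, changed sign after quantile normalization (-0.072), with normexp and quantile normalization (-0.013) and in the authors' log2 values (-0.064). Traf6 and its first probe, at -0.03, were at 0.20 with normexp and the 75th percentile and at 0.068 on slide 1 alone. With 1 array left out at a time, the genes higher numbered 1 to 2 and those lower 3 to 5, the member probes higher 1 to 3 and lower 5 to 7, and the pathway genes higher 5 to 8. Traf6 then ranged from -0.87 to 0.0024 and its first probe from -0.13 to 0.072. Without control replicate 2 or 3, Irak1 did not pass (0.47 and 0.45). Without overexpression replicate 2, 5 members were lower, since Ticam1 (-0.59) and Traf6 (-0.76) passed as well, and 5 pathway genes were higher.

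The deviations from the group means correlated with r = -0.16 and 0.07 between samples of replicate numbers 1 and 2 and with r = 0.60 for number 3 (across 16296 genes, which are not independent replicates), so not every number held together and the numbers were not taken as pairs. Number 3 is the pair on slide 2, and between samples on different slides r was -0.51 to -0.03. With the replicate number as a block, 10561 genes passed, and among the 10 genes 2 were higher and 4 lower, Ticam1 (-0.42) being the addition. Control replicates 1 and 2 correlated best with overexpression replicates of another number. Dim signal limits both Tlr4 probes in the overexpression samples, Ticam2 and Ppargc1a.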
